A study of Mus musculus with 15 samples.

Results

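The genes described here encode the machinery of mitosis: the cyclins and kinases that start it, the spindle checkpoint, the kinetochore, condensin, the spindle motors and the proteins that divide the cell. They are 42 genes chosen by name for their function, with earlier results of these data known, and all 42 were found among the 14801 genes of the deposited table. The 15 RNA-seq libraries, 3 for each of 5 groups, were made from fresh marrow cells that had been separated by flow cytometry, all from mice described as healthy, and the values are log2 CPM (the log2 of reads scaled to library size). The populations carry the labels CMP, CD115plusGMP, Neutrophil, PreNeut_Neutrophil and ProNeut_Neutrophil, the last 2 shortened here to PreNeut and ProNeut. In standard usage CMP is the common myeloid progenitor, CD115plusGMP a granulocyte-monocyte progenitor carrying the receptor for colony-stimulating factor 1, and PreNeut and ProNeut stages before the mature neutrophil; the labels give no sort markers, strain, age, sex or treatment. Whether each library stands for its own mouse is not stated either, so a p-value here measures only the spread between libraries, which may be technical.

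Mitosis begins when cyclin B bound to the kinase Cdk1 phosphorylates the proteins that condense chromosomes and build the spindle. Kinetochores then attach each chromosome to microtubules, and the checkpoint holds the anaphase-promoting complex (APC/C), a ubiquitin ligase, until all are attached. In the marrow the progenitors of granulocytes divide, whereas the mature neutrophil has left the cell cycle. Most of these genes are transcribed late in the cycle, in G2 and mitosis, and genes of DNA replication earlier.

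The libraries fell into a first set (the 9 of CMP, CD115plusGMP and Neutrophil, 810794 to 1444403 reads each over the table) and a second set (the 6 of PreNeut and ProNeut, 7493694 to 68171606 reads). ND6, the lone mitochondrial protein gene read from the other strand, held 69.1% to 93.3% of the reads of all 13 in first-set libraries, but only 0.154% to 0.230% in second-set libraries. First-set values may therefore count mainly the opposite strand and are values for a gene's locus. Rows without a gene symbol held 55.6% to 55.8% of the reads in CMP, 60.3% to 61.7% in CD115plusGMP and 63.5% to 69.5% in Neutrophil, against at most 0.146% in the second set. The library size implied by the scaling was 0.861 to 0.908 times the reads in CMP, 0.570 to 0.648 times in CD115plusGMP and 0.254 to 0.445 times in Neutrophil. Set and group cannot be told apart, so no group of the first set is tested here against one of the second. Markers fixed for 9 cell classes were used to check the labels: 12 late neutrophil genes summed to 36.9 to 40.2 CPM in CMP and 28.2 to 91.0 in CD115plusGMP, against at least 11410 CPM in the other 3 groups. Erythroid genes (12) summed to 521 to 656 CPM in CMP, and azurophil granule genes (7) to 431 to 870 CPM in CD115plusGMP against 19.6 to 24.6 in CMP. In bulk samples, fewer cells of a type and less RNA per cell cannot be told apart.

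The 42 genes held a larger part of the reads in the second set than in the first, where set and group cannot be told apart. They held 1.43% to 1.58% of the reads in the table in PreNeut and 1.40% to 1.50% in ProNeut, ranges that overlap. Within the first set they held 0.220% to 0.236% in CMP, 0.121% to 0.163% in CD115plusGMP and 0.0706% to 0.0966% in Neutrophil, without overlap. That separation depends on the scaling. With the implied library size they summed to 2450 to 2747 CPM in CMP, 2117 to 2722 in CD115plusGMP and 1585 to 3379 in Neutrophil, which overlap. Mki67 alone made up 77.7% to 85.3% of these reads in Neutrophil. Without it the sums were 2218 to 2500, 2030 to 2535 and 354 to 674 CPM, so only Neutrophil stood apart. When the 14298 genes with a symbol were ranked within each library, the median of the 41 genes other than Mki67 stood at percentile 94.7 to 95.5 in PreNeut and ProNeut. It stood at 83.1 to 85.0 in CMP, 78.1 to 80.5 in CD115plusGMP and 24.9 to 28.5 in Neutrophil, where the last is the rank of genes with no read. Between the sets, a difference in these ranks cannot be credited to group either. Mki67, which encodes the proliferation antigen Ki-67 that coats mitotic chromosomes, is described apart at the end. It was set apart because its values in the first set were unlike those of the others, so counts over 41 genes leave it out.

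**Figure D1:**
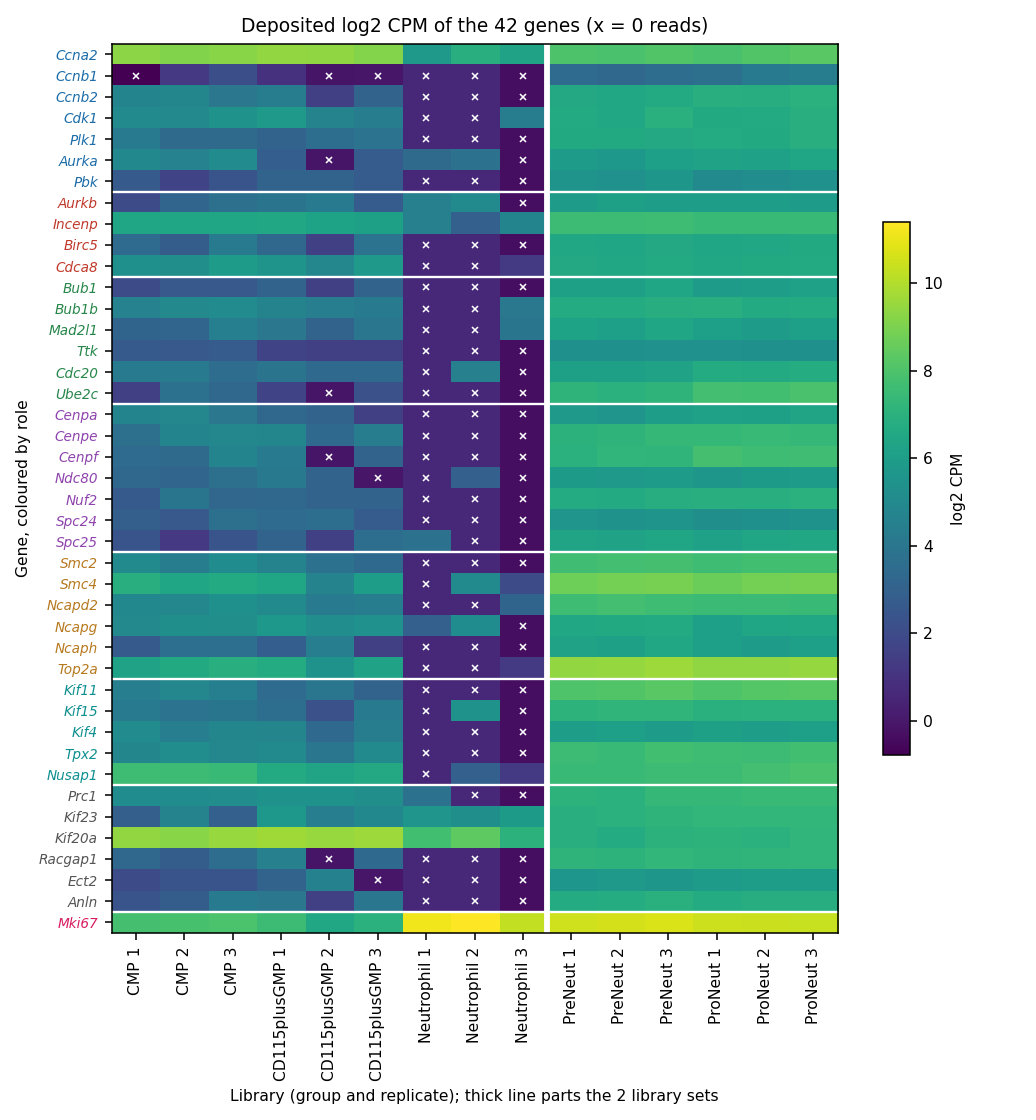
Deposited log2 CPM (colour) of the 42 genes (vertical axis, grouped by role) in each of the 15 libraries (horizontal axis), with a cross where a gene had 0 reads. Between 29 and 32 genes have a cross in each Neutrophil library and none has one in a PreNeut or ProNeut library, while Mki67 in the bottom line is bright in Neutrophil.

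Levels per kilobase of all annotated exons (log2 CPM less log2 of the exon length in kilobases) could be compared between genes in the second set, where the median of the 41 genes without Mki67 was 4.41 in PreNeut. Among cyclins, Ccna2 (cyclin A2) and Ccnb2 (cyclin B2) stood at 5.96 ± 0.10 and 5.95 ± 0.08 in PreNeut (SD, n = 3) on this scale, a difference within their spread. Ccnb1 (cyclin B1) stood at 1.38 ± 0.10, the lowest of all, below Ttk, a checkpoint kinase, at 3.04 ± 0.02. The reading of Ccnb1 is uncertain, because 4 other annotated genes, all pseudogenes, match its longest transcript over at least 200 bases with at least 95% identity, the closest (Ccnb1-ps) with 99.2% identity over 1287 bases. Mad2l1, Mki67, Ndc80, Pbk and Racgap1 have 1 or 2 near copies each. How reads on copies were counted is not given in the sources used here. The highest levels after Mki67 (7.29 ± 0.10) were those of Smc4, a condensin subunit, at 6.44 ± 0.11 and of Top2a, the topoisomerase that untangles sister chromatids, at 6.34 ± 0.09.

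The other role groups spanned a similar range. In the chromosomal passenger complex, which carries the kinase Aurkb to centromeres, the level per kilobase ran from 4.19 for Cdca8 (borealin) to 5.46 for Incenp, its scaffold. Among the checkpoint genes and partners of the APC/C, it ran from Ttk to Ube2c, the ubiquitin-conjugating enzyme of the APC/C, at 5.72. The 7 centromere and kinetochore genes stood between 3.17 (Ndc80, which grips the microtubule) and 4.66 (Spc25, of the same complex). Spindle genes ran from 3.57 for the chromokinesin Kif4 to 5.46 for Nusap1, which bundles spindle microtubules, and the genes of the central spindle and cytokinesis from 3.26 for Ect2, an activator of RhoA, to 4.76 for the kinesin Kif20a. Several of these ends depend on the length used: per kilobase of the longest transcript, Top2a (7.13) stood above Smc4 (6.71), Mad2l1 (3.36) was the lowest checkpoint gene, Cenpf (3.66) the lowest of the kinetochore and Prc1 (5.26) above Kif20a (5.001).

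Replicate libraries of the second set were close. The SD of a gene's log2 CPM over the 3 libraries had a median of 0.10 over the 41 genes in PreNeut and 0.09 in ProNeut, against 0.36 in CMP and 0.65 in CD115plusGMP. One library in each group of the second set was mostly the highest: PreNeut replicate 3 in 33 of the 41 genes and ProNeut replicate 3 in 28 of 41. Over all 14161 genes tested, these libraries were the highest in 36.9% and 33.2% of genes.

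The comparison of ProNeut with PreNeut asks whether the mitotic programme differs between these neutrophil stages. The summed share of reads overlapped between the groups, but a few genes differed: Ube2c, Cdc20, Ccnb1 and the large kinetochore protein Cenpf were higher in ProNeut by 1.46 to 1.59 times. The 6 checkpoint genes and partners of the APC/C, which include Ube2c and Cdc20, had 3 positive and 3 negative differences, with a median of 0.005 log2 units. Among them Mad2l1 stood at -0.26 and Bub1 at -0.18. The test fixed for this report (limma on log2 CPM with the spread of all 15 libraries, Benjamini-Hochberg adjusted p under 0.05 and a difference of at least 1 log2 unit) called 0 of the 41 genes, and 0 had an unadjusted p under 0.05. It called 1.84% of all genes tested as higher and 0.417% as lower. The median difference of the 41 was 0.02 log2 units (range -0.33 to 0.67), against 0.07 for all genes tested. The count is also 0 with voom weights on the recovered reads. Quantile normalization shifts the split of all genes called from 261 higher and 59 lower to 271 and 183, with 0 of the 41 genes called.

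That test takes its spread partly from the noisier first set. With the spread of the 6 libraries of the second set alone and no minimum difference, a rule added after the data had been seen, 9 of the 41 genes were higher and 1 was lower, where 10.8% of all genes tested were higher and 11.1% lower. The counts depend on the scaling: they were 7 and 8 with plain totals, 3 and 2 with quantile normalization and 13 and 0 with median centring, and no test was made of them against the background. Separation without overlap was seen in 13 higher and 6 lower genes of 41, against 17.8% and 18.2% of all genes. Without ProNeut replicate 3, 4 higher and 2 lower genes passed.

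Ube2c (chromosome 2, 164769898 to 164778822, GRCm38) had 7.15, 7.02 and 7.13 log2 CPM in PreNeut and 7.74, 7.69 and 7.89 in ProNeut. Every ProNeut library lay above every PreNeut library. ProNeut exceeded PreNeut by 0.67 ± 0.08 (log2; SE from 3 libraries per group), or 1.59-fold (95% interval 0.50 to 0.84 log2 units; limma adjusted p = 1.9e-05 with the spread of the second set and 0.869 with that of all libraries).

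Cdc20, the APC/C activator that starts anaphase (chromosome 4, 118432901 to 118437352), had 6.14, 6.16 and 6.22 log2 CPM in PreNeut and 6.73, 6.65 and 6.78 in ProNeut. The groups did not overlap, and the difference was 0.55 ± 0.08 (limma adjusted p = 9e-05, spread of the second set). Cenpf (chromosome 1, 189640606 to 189688086), which sits on the outer kinetochore, had 7.01, 7.24 and 7.17 log2 CPM in PreNeut and 7.80, 7.64 and 7.64 in ProNeut. It was higher by 0.56 ± 0.09 (limma adjusted p = 0.00018, spread of the second set), again without overlap. These 3 genes passed under each scaling of the libraries tried and with each library left out in turn, with the spread of the second set, and with voom weights. They missed the threshold with the spread of all 15 libraries, with or without library quality weights.

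Ccnb1 had 3.48, 3.34 and 3.54 log2 CPM in PreNeut and 3.72, 4.23 and 4.36 in ProNeut. The ProNeut libraries were higher but spread over more than 0.5 log2 units, and the difference was 0.65 ± 0.16 (limma adjusted p = 0.0079, spread of the second set; 0.05 without ProNeut replicate 3 and 0.052 with voom weights). The other cyclin of its type, Ccnb2, was higher by 0.31 ± 0.08 (adjusted p = 0.0127 in the same limma test), at 6.54, 6.49 and 6.66 log2 CPM in PreNeut against 6.84, 6.80 and 6.99 (0.0726 without ProNeut replicate 3). Their kinase partner Cdk1 showed a difference of 0.01 (95% interval -0.21 to 0.23), with overlapping libraries, and Ccna2 one of 0.12 (-0.09 to 0.32).

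Aurka, the kinase of centrosomes and spindle poles, had 5.96, 5.72 and 6.09 log2 CPM in PreNeut and 6.24, 6.20 and 6.36 in ProNeut, without overlap, and was higher by 0.34 ± 0.10 (limma adjusted p = 0.0185, spread of the second set; 0.0805 without PreNeut replicate 2 and 0.0751 without ProNeut replicate 3). Its sister kinase of the passenger complex, Aurkb, differed by -0.06 (95% interval -0.23 to 0.12). No gene of that complex passed, and its 4 differences lay between -0.13 (Incenp) and 0.04 (Cdca8). Plk1, a kinase that acts from mitotic entry to cytokinesis, differed by 0.14 (-0.04 to 0.31).

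At the centromere, Cenpa, the histone H3 variant that marks it, had 5.76, 5.55 and 6.06 log2 CPM in PreNeut and 6.18, 6.13 and 6.31 in ProNeut. It was higher by 0.42 ± 0.11 (limma adjusted p = 0.0127, spread of the second set; 0.0503 without ProNeut replicate 3). The kinetochore motor Cenpe (0.19) and the Ndc80 complex subunit Nuf2 (0.19) did not overlap between the groups but missed the adjusted threshold (limma adjusted p = 0.137 and 0.106, same spread). The other subunits of that complex, Ndc80, Spc24 and Spc25, had differences of -0.07, -0.16 and 0.04, with overlapping libraries.

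Among the genes of the central spindle and of cytokinesis, 5 of 6 differences were positive on the deposited scale (4 of 6 with plain totals or quantile normalization, 6 of 6 with median centring). Kif23, the motor of centralspindlin, had 6.91, 6.98 and 7.14 log2 CPM in PreNeut and 7.30, 7.30 and 7.27 in ProNeut, a difference of 0.28 ± 0.08 (limma adjusted p = 0.0203, spread of the second set). Ect2 was higher by 0.26 ± 0.09 (adjusted p = 0.0373 in the same limma test). Prc1, which crosslinks the midzone microtubules, had a difference of 0.25 and Kif20a one of 0.24 (limma adjusted p = 0.0595 and 0.102), while Racgap1, the partner of Kif23, stood at 0.01. Kif23 missed the threshold without PreNeut replicate 1 or ProNeut replicate 1 or 2 (0.0538 to 0.105), and Ect2 without PreNeut replicate 1 or 3 or ProNeut replicate 2 or 3 (0.0785 to 0.147). Ccnb2, Cenpa, Aurka, Kif23 and Ect2 all missed it with voom weights (limma adjusted p = 0.0606, 0.184, 0.295, 0.0932 and 0.207).

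All 6 of the condensin and topoisomerase group had negative differences with the deposited scaling, plain totals and quantile normalization (5 of 6 with median centring), none past the adjusted threshold. Smc4 and Smc2, at -0.01 and -0.05, hardly differed. Negative differences were not confined to this group: 16 of the 41 genes had one, among them Mad2l1 at -0.26 and Kif15 at -0.18, against 25 positive. The condensin I subunits Ncapg and Ncaph differed by -0.24 each (limma adjusted p = 0.103 and 0.0771, spread of the second set), Ncapd2 by -0.18, and Top2a by -0.12 (95% interval -0.31 to 0.08). The single lower gene was Pbk, a mitotic kinase with a pseudogene copy of 95.4% identity over 955 bases of its transcript, at 5.51, 5.40 and 5.67 log2 CPM in PreNeut and 5.02, 5.19 and 5.36 in ProNeut. Its difference was -0.33 ± 0.11 (limma adjusted p = 0.0325, spread of the second set) and missed the threshold without PreNeut replicate 1 or 3 or ProNeut replicate 1 or 2 (0.0605 to 0.15).

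**Figure D2:**
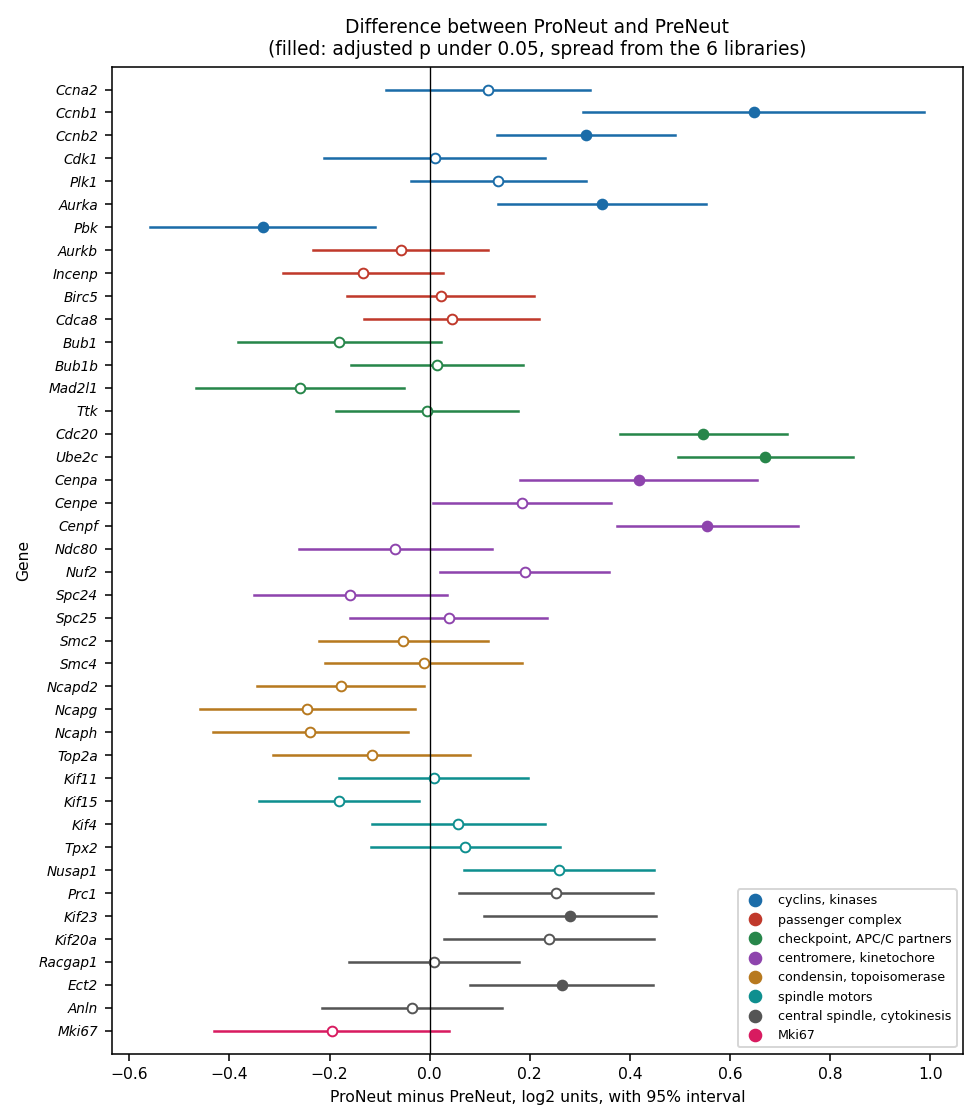
Difference of ProNeut from PreNeut in log2 units (horizontal axis) for each of the 42 genes (vertical axis, coloured by role), with the 95% interval from limma with the spread of the 6 libraries of the second set; filled points passed an adjusted p of 0.05. Ube2c, Ccnb1, Cenpf and Cdc20 lie farthest to the right, and the condensin and topoisomerase genes lie left of 0.

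Other lists of cell cycle genes, chosen with earlier results of these data known, are set beside the 41 genes. Of 41 genes of DNA replication, 41 were lower in ProNeut with the spread of the second set, and 8 were called by the test over all libraries, with a median of -1.37 log2 units; Pcna, the replication clamp, differed by -2.03 and the origin loader Cdc6 by -2.26. Of 95 further mitosis genes, 18 were higher and 23 lower with the spread of the second set and a median of 0.03. Their extremes were Cdc25b, the phosphatase that activates Cdk1, at 1.21 and Mybl2, a transcription factor of late cell cycle genes, at -1.77 (limma adjusted p = 6.3e-07 and 7.6e-08, spread of the second set). Of 16 subunits and co-activators of the APC/C, 1 was higher (Fzr1, the late mitotic activator, 0.39) and 2 were lower (Anapc5, -0.32, and Anapc1, -0.27), and of 13 cohesin genes 5 were lower, among them Smc3 at -0.50.

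**Figure D3:**
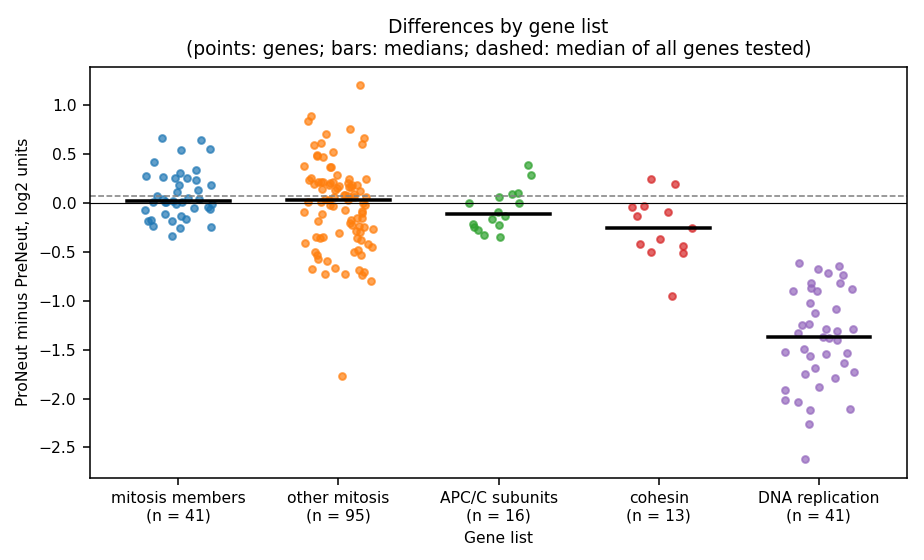
Difference of ProNeut from PreNeut in log2 units (vertical axis) for each gene of 5 lists (horizontal axis), with the median of each list as a bar and that of all genes tested as a dashed line. The 41 mitosis genes centre on 0.02 and the 41 replication genes on -1.37.

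Marker genes of other cells also differed between these groups: 6 basophil and mast cell genes summed to 27.3 to 31.4 CPM in PreNeut and 2.28 to 2.52 in ProNeut, with Fcer1a at 0 reads in ProNeut. The 3 T and NK cell genes summed to 21.6 to 29.3 CPM against 3.21 to 5.25, and 12 erythroid genes to 47.6 to 69.5 against 79.4 to 88.0. Azurophil granule genes (7), which mark early neutrophil precursors, summed to 1099 to 1312 CPM in PreNeut and 73.0 to 156 in ProNeut, the reverse of what the usual naming of these stages would give, so the labels are used here as names and not as an order in time. The part of these markers in the differences above was not tested.

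The promoters of these genes are shown because a shared element is well known in them. The cell cycle homology region (CHR), with the core TTTGAA, binds the MuvB complexes that repress such genes in resting cells and activate them before mitosis, often beside CCAAT boxes bound by NF-Y. RefSeq promoter windows (GRCm38.p6, 250 bases before to 50 after the start) were found for 34 of the 42 genes, in 36 windows. Both strands were searched, for TTTGAA or TTCAAA and for CCAAT or ATTGG, 2 motifs that can share at most 1 base. The core was in 77.8% of these windows against 17.9% of all 32851 windows, and within 50 bases of the start in 72.2% against 4.94%. A CCAAT box was in 77.8% against 37.4%, and the core with at least 2 CCAAT boxes in 44.4% against 2.09%. Of windows of the DNA replication list 13.5% held the core, and of those of the further mitosis genes 47.2%.

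**Figure D4:**
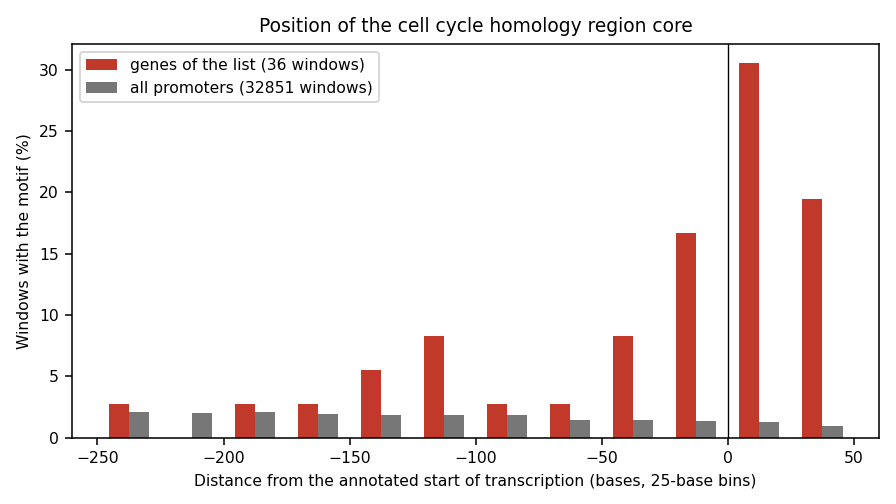
Share of promoter windows (vertical axis, %) with the CHR core beginning in each 25-base bin, by distance from the annotated start of transcription (horizontal axis, bases), for the 36 windows of the mitosis genes and for all 32851 windows. The share for the mitosis genes is 30.6% in the first bin after the start, against 1.31% of all windows.

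The stretches printed here run from 153 to 4 bases before the start for 5 genes whose core lies there: the APC/C partners Ube2c and Cdc20, both among the higher genes, and Cdk1, Kif11 (the motor that separates spindle poles) and Top2a, which did not pass. Capitals mark the CHR core and the CCAAT boxes on either strand, and each sequence reads 5′ to 3′ on the gene's strand. They lie at chr2:164769776-164769925 (plus strand, Ube2c), chr4:118437347-118437496 (minus, Cdc20), chr10:69352916-69353065 (minus, Cdk1), chr19:37376229-37376378 (plus, Kif11) and chr11:99024193-99024342 (minus, Top2a).
Ube2c: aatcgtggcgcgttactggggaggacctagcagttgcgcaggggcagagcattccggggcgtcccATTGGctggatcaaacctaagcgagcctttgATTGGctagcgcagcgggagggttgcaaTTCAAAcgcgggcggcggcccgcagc
Cdc20: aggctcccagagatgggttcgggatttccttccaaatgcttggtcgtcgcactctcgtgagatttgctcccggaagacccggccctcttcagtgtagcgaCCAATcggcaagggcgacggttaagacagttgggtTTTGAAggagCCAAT
Cdk1: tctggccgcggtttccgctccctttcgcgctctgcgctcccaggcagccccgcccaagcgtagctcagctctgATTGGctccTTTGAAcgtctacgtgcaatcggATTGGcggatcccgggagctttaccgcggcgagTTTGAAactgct
Kif11: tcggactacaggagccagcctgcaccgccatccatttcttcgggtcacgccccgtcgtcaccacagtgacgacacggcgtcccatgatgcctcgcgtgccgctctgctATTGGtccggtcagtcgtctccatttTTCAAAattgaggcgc
Top2a: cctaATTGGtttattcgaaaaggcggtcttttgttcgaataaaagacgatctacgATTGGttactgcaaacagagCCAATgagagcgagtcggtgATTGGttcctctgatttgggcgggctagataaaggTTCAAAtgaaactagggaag

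The core nearest to the start begins 29 bases before it in Ube2c, 18 in Cdc20, 15 in Cdk1, 19 in Kif11 and 23 in Top2a. These genes were printed because their core lies in this stretch. That both higher genes and genes that did not pass carry it here follows from that choice. The windows of Birc5, Bub1, Ccnb1, Cenpe, Mad2l1, Ncaph, Nuf2 and Nusap1 hold no TTTGAA core, which says only that these letters are not in those windows. A match is a description of the sequence, not a measured site.

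In the first set, CD115plusGMP was compared with CMP to ask whether the genes differ between these progenitors. Few differences were larger than the spread: 28 of 41 were negative, with a median of -0.40 log2 units against 0.26 for all genes tested. That median was -0.10 without CD115plusGMP replicate 2, -0.05 with median centring and -0.95 with plain totals. Limma called 1 gene higher and 2 lower, where 8.08% of all genes were called higher and 4.56% lower. Among genes with at least 10 reads over these groups, 10.9% were called higher and 7.5% lower. With the spread of the first set alone, none of the 41 was called, and 3 had an unadjusted p under 0.05. Markers of other cells moved between the groups too: erythroid genes summed to 19.0 to 31.99 CPM in CD115plusGMP against 521 to 656 in CMP, with Gata1 among the 6 at 0 reads, and 8 monocyte genes to 314 to 548 against 20.1 to 24.3. The 9 stem and progenitor genes summed to 33.9 to 71.5 CPM against 81.4 to 93.3, and 6 megakaryocyte genes to at most 1.88 against 6.93 to 12.9. Their part in these differences was not tested.

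Aurka had 25, 25 and 42 reads in CMP and 5, 0 and 3 in CD115plusGMP, without overlap. The fitted level fell by 3.03 ± 0.89 log2 units (n = 3, SE of the fit; limma adjusted p = 0.0326), but not past the threshold without CD115plusGMP replicate 2 (a difference of -2.07, adjusted p = 0.154) or without any one of the CMP libraries (0.0719 to 0.0979). Cenpa had 22, 30 and 20 reads against 7, 4 and 1 and fell by 1.90 ± 0.49 (limma adjusted p = 0.0169; 0.0696 without CD115plusGMP replicate 3, 0.0555 and 0.0687 without CMP replicates 1 and 2). Kif23 had 6, 26 and 9 reads in CMP and 40, 11 and 15 in CD115plusGMP, which overlap, and was called higher at 1.52 ± 0.43 (limma adjusted p = 0.0293). That call was lost without CMP replicate 1 or 3 or CD115plusGMP replicate 1 or 3 (0.0567 to 0.126).

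The scaling of the libraries moves this comparison. The median of all genes tested shifts by -0.56 log2 units with plain totals of reads and by 0.35 with median centring, and the genes called in the whole table change from 1144 higher and 646 lower to 696 and 1383 with plain totals and 1291 and 302 with median centring. Of the 41 genes, 0 were then called higher and 8 lower with plain totals, and 1 higher and 0 lower with median centring. Of the lists beside them, 8 of 41 replication genes were called lower and none higher, with a median of -0.85, and 3 higher and 3 lower of 95 further mitosis genes. With the spread of the first set these became 2 lower, and 1 higher and 0 lower. Cohesin had 1 of 13 lower (Wapl, which releases cohesin from DNA, -1.74), and the APC/C 0 of 16 called in either direction, with 2 at an unadjusted p under 0.05 and none called with the spread of the first set.

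Neutrophils were compared with CMP and with CD115plusGMP to ask how the genes differ in the most mature cells of the set. These comparisons share the Neutrophil libraries, and the first shares CMP with the comparison above. In each role group most mitosis genes were lower in Neutrophil than in CMP, and many had no read there: 21 of 41 had 0 reads in all 3 Neutrophil libraries, whereas none had 0 reads over CMP or CD115plusGMP. Of all genes tested, 34.7% had 0 reads over Neutrophil, 11.7% over CMP and 16.1% over CD115plusGMP. Against CMP, 35 of 41 were called lower and 1 higher, where 17.1% of all genes were called lower and 26.8% higher; against CD115plusGMP, 32 were called lower and 0 higher, where 13.2% and 20.2% of all genes were. The 32 became 21 with the replicate block and 19 with these groups fitted alone. That test takes its spread partly from the quieter second set. With the spread of the first set alone the median SE of the 41 genes was 0.78 instead of 0.56. Against CMP 30 were then called lower and 1 higher, beside 1998 and 3934 of the 14161 genes tested. Against CD115plusGMP 27 were called lower and 0 higher, beside 1510 and 2553. Among genes with at least 10 reads over the groups compared, 25.6% of genes were called lower against CMP and 20.4% against CD115plusGMP. Separation without overlap was seen against CMP in 33 lower genes and 1 higher gene of 41, where 20.3% and 32.7% of all genes separated. A gene without reads in both groups separates as higher by construction, since its listed value depends on library size. That value is 0.63, 0.62 and -0.32 in Neutrophil and -0.79, -1.08 and -1.31 in CMP. Such genes also enter the medians of all genes tested with a positive difference. Medians of the fitted differences were -2.92 and -2.65 log2 units, against 0.60 and 0.32 for all genes tested.

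A fitted difference depends on the 0.5 reads added to each count, so ratios of scaled reads were computed too. With genes without a read in Neutrophil set at a floor of 3 reads over the group, the median of the log2 ratios was -2.15 against CMP (41 genes) and -2.06 against CD115plusGMP (40 genes with a ratio or a floor). Floors and counting intervals cover counting error only. A gene without reads is listed at -1.31 to 0.63 log2 CPM in this set, depending on the library's size.

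Top2a had 65, 102 and 141 reads in CMP, 80, 23 and 39 in CD115plusGMP and 0, 0 and 1 in Neutrophil. Scaled by library size, CMP was 124 times as high as Neutrophil (95% counting interval 22.1 to 4910), and the fitted difference was -5.72 ± 0.30 log2 units (limma adjusted p = 6.1e-10). All 6 condensin and topoisomerase genes were called lower against both progenitors.

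Nusap1 had 169, 203 and 219 reads in CMP, 77, 42 and 49 in CD115plusGMP and 0, 2 and 1 in Neutrophil. The CMP level was 79.3 times that of Neutrophil (27.0 to 386), with a fitted difference of -5.95 ± 0.41 (limma adjusted p = 1e-08). Tpx2, which builds microtubules around chromosomes, had 98 reads in CMP and 0 in Neutrophil, at least 13.2-fold lower, the highest such floor among the 41 genes. Kif4 was at least 11.4-fold lower, Kif11 at least 10.1-fold and the condensin subunit Smc2 at least 12.5-fold.

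Kinases, checkpoint and kinetochore genes followed with fewer reads. Of the 7 cyclins and kinases 6 were called lower against CMP (4 with the spread of the first set alone), while Ccnb1, with 7 reads in CMP and 0 in Neutrophil, was not called. Ccnb2 had 71 reads in CMP and 0 in Neutrophil, at least 9.53-fold lower, whereas Cdk1 had 0, 0 and 12 reads in Neutrophil against 28, 32 and 55 in CMP. All 6 checkpoint genes and APC/C partners and 6 of 7 centromere and kinetochore genes were called lower against CMP. Among the latter, Cenpe and Cenpa had 73 and 72 reads in CMP and 0 in Neutrophil, at least 9.80-fold and 9.66-fold lower.

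Not every gene was low. Aurkb had 3, 9 and 16 reads in CMP and 7, 10 and 0 in Neutrophil, a fitted difference of 0.10 ± 0.98 (limma adjusted p = 0.945), which rests on Neutrophil replicate 3: without it the gene was called higher. Kif15, a motor that backs up Kif11, had all of its 14 Neutrophil reads in replicate 2. Kif23 had 15, 12 and 36 reads in Neutrophil against 6, 26 and 9 in CMP and was called higher by 2.07 ± 0.43 (limma adjusted p = 0.00098), or 3.82 times in scaled reads (2.54 to 5.80). With plain totals the difference was 0.71 (adjusted p = 0.256) and with quantile normalization 1.01 (0.0835), so this call depends on the scaling.

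The scaling moves these comparisons as well. With plain totals the median of all genes tested against CMP shifts by -1.36 log2 units, with median centring by 1.002 and with quantile normalization by -0.76, and the genes called change from 3792 higher and 2420 lower to 1923 and 4652, 5534 and 1116, and 2457 and 3449. The 41 genes called lower against CMP were 38, 24 and 37 under these scalings, and against CD115plusGMP 34, 25 and 33. Against CD115plusGMP, the genes called in the table change from 2861 higher and 1865 lower to 1799 and 3121, 3758 and 1024, and 2106 and 2694. Of the lists beside them, 31 of 41 replication genes were called lower and 4 higher against CMP (median -3.22), 53 and 7 of 95 further mitosis genes (-1.92), 7 and 0 of 16 APC/C genes (-1.02) and 4 and 3 of 13 cohesin genes (-0.08).

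Markers of other cells also differed: the 12 erythroid genes summed to at most 9.61 CPM in Neutrophil against 521 to 656 in CMP, with Gata1, Klf1 and both globin genes at 0 reads in Neutrophil. The 9 stem and progenitor genes summed to 9.19 to 19.2 CPM in Neutrophil, and the 8 monocyte genes to 15.3 to 152. Their part in the fall of the mitosis genes was not tested.

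The loci behind the first-set reads are uneven. Kif20a and Ccna2 (cyclin A2) alone held 52.2% to 69.3% of the reads of the 41 genes in first-set libraries, but 6.28% to 7.57% in the second set. Kif20a shares 1271 exon bases with Cdc23, an APC/C subunit on the opposite strand, and Ccna2 shares 510 with Exosc9, a subunit of the RNA exosome. Both partners were read more than the mitosis gene in CMP, Cdc23 with 5060 reads against 2138 for Kif20a and Exosc9 with 4594 against 1865 for Ccna2. In PreNeut the order was the reverse: Kif20a had 24643 reads against 8538, and Ccna2 had 51441 against 3330. In Neutrophil, Cdc23 had 70 reads against 257 for Kif20a, and Exosc9 had 28 against 101 for Ccna2. Cdc23 is among the APC/C genes called lower in Neutrophil than in CMP, at -5.47 ± 0.38 log2 units (limma adjusted p = 8.9e-09). Which strand the reads of these loci came from was not tested.

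Kif20a had 598, 642 and 898 reads in CMP, 620, 396 and 409 in CD115plusGMP and 67, 108 and 82 in Neutrophil. From CMP to Neutrophil it fell by 1.68 ± 0.24 log2 units (limma adjusted p = 2.5e-05; a difference of -0.68 and adjusted p = 0.215 with median centring). In all, 10 of the 42 genes (23.8%) share at least 50 exon bases with a gene on the other strand, against 30.5% of the 14048 genes of the table matched to the annotation. Of the 31 genes without such a partner and without Mki67, 25 were called lower and 1 higher in Neutrophil against CMP, with a median of -2.92. Of all genes tested, 17.1% were called lower and 26.8% higher. Reads of a gene without an annotated partner may also come from the opposite strand, and the part of strand was not tested.

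Mki67 (chromosome 7, 135689784 to 135716361, no annotated gene on the other strand sharing exon bases) was higher in Neutrophil than in either progenitor, where most of the other genes were lower. It had 190, 245 and 306 reads in CMP, 144, 46 and 67 in CD115plusGMP and 732, 883 and 769 in Neutrophil. On the log2 CPM scale these 3 groups had separate ranges, with Neutrophil highest (11.15, 11.40 and 10.27) and CD115plusGMP lowest (7.55, 6.45 and 7.01). Against CMP the Neutrophil level was higher by 3.08 ± 0.25 log2 units (limma adjusted p = 5.7e-08), or 7.99 times in scaled reads (95% counting interval 7.36 to 8.69). Against CD115plusGMP it was higher by 3.93 ± 0.25 (limma adjusted p = 1.2e-08), or 13.3 times (11.7 to 15.2). With the spread of the first set alone the SE was 0.34. Mki67 was set apart for its values in these same libraries, so these p-values describe that choice and are no independent test.

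Scaling changed the size but not the direction of this result: against CMP the difference was 1.71 with plain totals, 2.19 with quantile normalization and 4.08 with median centring. In CD115plusGMP, Mki67 was lower than in CMP by a difference of -0.86 ± 0.25 (limma adjusted p = 0.0319), under the minimum of 1 log2 unit; it was -1.42 with plain totals, -0.51 with median centring and -0.58 without CD115plusGMP replicate 2. In Neutrophil, Mki67 made up 77.7% to 85.3% of all reads of the 42 genes, in CMP 8.60% to 9.47% and in the second set 17.9% to 22.3%. Since the first set may count the opposite strand, these are reads of the Mki67 locus; no strand was tested for this gene.

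In the second set Mki67 was the highest of the 42 genes and hardly differed between the groups. It had 10.53, 10.60 and 10.73 log2 CPM in PreNeut and 10.48, 10.41 and 10.38 in ProNeut. The ProNeut libraries all lay below those of PreNeut, and the difference was -0.20 (95% interval -0.43 to 0.04; limma adjusted p = 0.241 with the spread of the second set, and 0.0319 with voom weights or plain totals). Its promoter window holds 2 CHR cores and 3 CCAAT boxes.

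**Figure D5:**
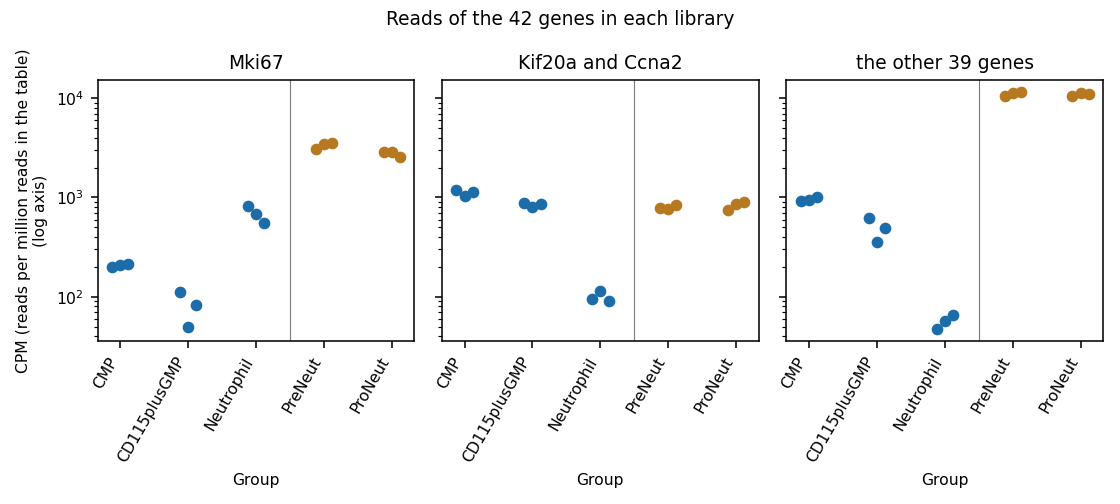
CPM, here reads scaled to the total of the table (vertical log axis), in each library of the 5 groups (horizontal axis, 1 point per library, the 2 sets in different colours), for Mki67, for Kif20a with Ccna2 and for the other 39 genes. In Neutrophil, Mki67 stands at 549 to 824 and the other 39 genes together at 47.3 to 66.3, while in CMP they stand at 199 to 212 and 930 to 1010.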

How the data were processed

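The series holds 15 RNA-seq libraries of 5 sorted populations, made with the Universal Plus mRNA-Seq kit per the labels. The authors deposited 1 table of log2 CPM values. The submitters' processing notes name GRCm38 (mm10), edgeR 1.30.5, featureCounts 1.22.2 and FastQC 0.11.7. Which aligner, strand setting and annotation served is not given in the sources used here. Every value in all libraries was the log2 of a whole number of reads plus 0.5, scaled (tolerance 0.001 reads), so reads were recovered. Replicates differed by more than sampling noise (chi-square per degree of freedom 2.10 to 24.4). The members and lists were chosen with earlier results of these data known.

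Genes above 0 log2 CPM in at least 3 libraries were tested, 14161 in all, with limma 3.58.1 in R 4.3.3 (group means, trend, 2-sided p, Benjamini-Hochberg over all genes tested). All 42 members passed this filter. A gene without reads is listed above 0 in Neutrophil replicates 1 and 2 (0.63 and 0.62 log2 CPM), so the filter also kept genes with few reads. A call needed an adjusted p below 0.05 with a difference of 1 log2 unit or more. The script was tested on simulated reads. Named members were those called, those with at least 10 reads in a first-set group and the highest and lowest of each role per kilobase, with up to 4 called genes per further list. Exon lengths, overlaps and coordinates came from GENCODE M21, promoters from RefSeq. Alternatives changed the spread, scaling, filter, weights and libraries, 1 at a time. The result of 1 list of marker genes is not reported here.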

Additional observations from a re-analysis of the deposited data

How the results depend on the processing

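In CD115plusGMP against CMP the count of called genes was the least stable. Against 1 higher and 2 lower as reported, it was 0 and 0 with the spread of the first set, 0 and 1 with voom weights, 0 and 8 with plain totals, 1 and 0 with median centring, 1 and 6 with quantile normalization and 1 and 4 with library quality weights. Leaving out 1 library gave 0 to 1 higher and 0 to 4 lower. In Neutrophil against CMP, higher calls were 0 with plain totals or quantile normalization and 1 to 2 with a library left out (2 without Neutrophil replicate 3, which adds Aurkb), and lower calls 30 to 35. In Neutrophil against CD115plusGMP, median centring called 1 gene higher (Kif23), leaving out a library 0 to 1 higher (Aurka without Neutrophil replicate 3) and 26 to 32 lower, and the 2 groups fitted alone 19 lower. In ProNeut against PreNeut the called count was 0 in both directions under each alternative run; the genes past the adjusted p alone with the spread of the second set (a rule chosen after seeing the data), 9 higher and 1 lower, were 0 and 0 with all 15 libraries or with library quality weights, 4 and 1 with voom weights, 13 and 0 with median centring, 7 and 8 with plain totals, 3 and 2 with quantile normalization, and 4 to 10 and 0 to 3 with a library left out. The cause was not tested. Of 468 values of selected genes under an alternative, 396 kept their direction and side of the threshold, 64 lost the call, 8 gained one and 0 changed sign. The selection held mostly genes that were called or passed the adjusted p. Other genes did change sign in ProNeut against PreNeut. With plain totals, positive differences went from 2 to 0 of 4 in the passenger complex and from 4 to 1 of 5 among spindle genes. Median centring left both counts as they were. Of 64 medians, 54 were classed as the same and 10 as moved. With the longest transcript in place of all exons, the median level per kilobase in PreNeut was 4.87 instead of 4.41. With TTTAAA also accepted, 86.1% of windows held the core.

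Same-numbered libraries of different groups did not pair by the rule of a correlation of deviations over 0.1 in every pair (-0.05 to 0.15 over all comparisons, with 8 of 24 best with their own number; 0.05 to 0.15, with 4 of 6, between ProNeut and PreNeut, a hint from the data only). The replicate block gave 1 higher and 4 lower in CD115plusGMP against CMP, 1 and 30 in Neutrophil against CMP, 0 and 21 in Neutrophil against CD115plusGMP and 0 and 0 called in ProNeut against PreNeut, where 12 higher and 4 lower passed the adjusted p alone. In Neutrophil 31 of the 41 genes had under 10 reads, which limits the precision of their differences, whereas in CMP 40 had at least 10. The library size implied by the scaling was 323151 to 624538 in Neutrophil and 865335 to 1243017 in CMP. The part of library size in the missing reads was not tested.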
